A study of Mus musculus with 9 samples.

Results

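RAW-Blue cells are mouse macrophages of an established line with a built-in reporter of inflammatory signalling, and the genes described here are those whose products build ribosomes in their nucleoli. The set held 52 protein-coding genes of the 50600 genes in the deposited tables. They were chosen by symbol: Polr1 for the subunits of RNA polymerase I, Utp, Nop, Nol, Rrp and Noc followed by a digit, and Ncl, Npm1, Fbl, Dkc1, Gar1, Bop1 and Pes1. The symbol rule uses no measured value, but it was set with earlier results of these data known. Both groups were cultures of this line. The None group had no stimulus, and the LPS group had lipopolysaccharide, the outer membrane component of Gram-negative bacteria that the receptor Tlr4 recognises, at 1 µg/ml for 24 hours. Each group had 3 libraries. The study also had 3 samples given plant vesicles before LPS (LPS-PjELNs), which were not analysed here. Nothing in the labels says that replicates were separate cultures, so p-values measure the spread between these libraries, which may be technical.

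Ribosomes are assembled in the nucleolus. RNA polymerase I copies the ribosomal DNA into a long precursor RNA. Small nucleolar ribonucleoproteins (snoRNPs) guide its 2′-O-methylation (box C/D) and pseudouridylation (box H/ACA), the small-subunit processome folds and cuts the part that becomes the 40S subunit, and a separate series of factors matures the 60S subunit. Growing and dividing cells make many ribosomes, and the transcription factor Myc is known to drive genes of this pathway. None of the values below measures ribosomal RNA or the making of ribosomes: they are levels of the messenger RNAs of the factors.

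After 24 hours of LPS the set did not move as one body. The 6 snoRNP core genes of the set (Fbl only at the threshold) and the genes of nucleolin (Ncl) and nucleophosmin (Npm1) were lower. More genes of the small-subunit processome were higher than lower (8 and 4, but 6 and 8 with library totals). The share of the processome that rose, 36.4%, was near the 34% of all genes tested. Genes of 60S assembly divided, and 4 of the 5 RNA polymerase I subunits of the set were not called. Of 50 members with enough counts for a test, 13 rose and 16 fell at an adjusted p under 0.05 (edgeR's quasi-likelihood test on counts, Benjamini-Hochberg over the 11916 genes tested). That is 26.0% rising, beside 34% of all genes tested, and 32.0% falling, beside 35.1% of all genes. In both directions together 29 members, or 58.0%, were called, beside 69.1% of all genes. The share called was no larger than the background of this comparison, and what follows describes which members moved. The changes were small: the median absolute log2 fold change was 0.31 over the members and 0.48 over all genes tested. Rrp9 was the single member with a called increase of at least 2-fold, a size that 11.1% of all genes reached, and the largest decrease was 1.86-fold, while 11.8% of all genes fell by at least 2-fold. In 34 members (68.0%) the values of the groups did not overlap, 17 with LPS lower and 17 with LPS higher. Over all genes that share was 73.6%, with 38% lower and 35.7% higher. The median log2 fold change of the members was -0.03, beside -0.03 for all genes.

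The libraries held from 14650825 to 17665201 counts. Counts below are given as CPM, relative to the size of each library, with sizes scaled by TMM, which sets the typical gene to no change. With scaling by library totals alone, log2 fold changes of all genes moved by a median of -0.26, and 11 members were higher and 28 lower, beside 22.5% and 51% of all genes. On TPM, which relates counts to transcript length as well, with a median shift of -0.20, 12 members were higher and 22 lower, beside 23.3% and 42.8% of all genes. Directions below are therefore relative to the typical gene. The 29 called members kept their sign in all 15 alternative analyses. LPS replicate 1 stood apart from the other LPS libraries on the second principal component (3.23% of variance), and without it 13 members were again higher and 16 lower. Of 10 macrophage markers, all tested, 5 rose and 2 fell (Csf1r by 1.33 and Ptprc by 0.46 on the log2 scale). Their summed TPM was 12226 ± 909.6 in None and 20563 ± 1141 in LPS, of which Lyz2 made up 9714 and 16563, while Mrc1 was at 0.19 and 0.82. Of 12 markers of other cell types, 7 were at 0 in all 6 libraries, including Cd3e, Epcam and Alb, and the summed TPM of the 12 was at most 0.900 in a library. Of 20 cell division markers 19 fell, with summed TPM of 1553 ± 69.8 in None and 709 ± 129.7 in LPS, and the share of counts on mitochondrially encoded genes was 3.84% to 4.28% in None and 2.46% to 2.7% in LPS. The part of cell division in the results below was not tested. In bulk RNA, fewer cells of a kind and less RNA per cell cannot be told apart.

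**Figure D1:**
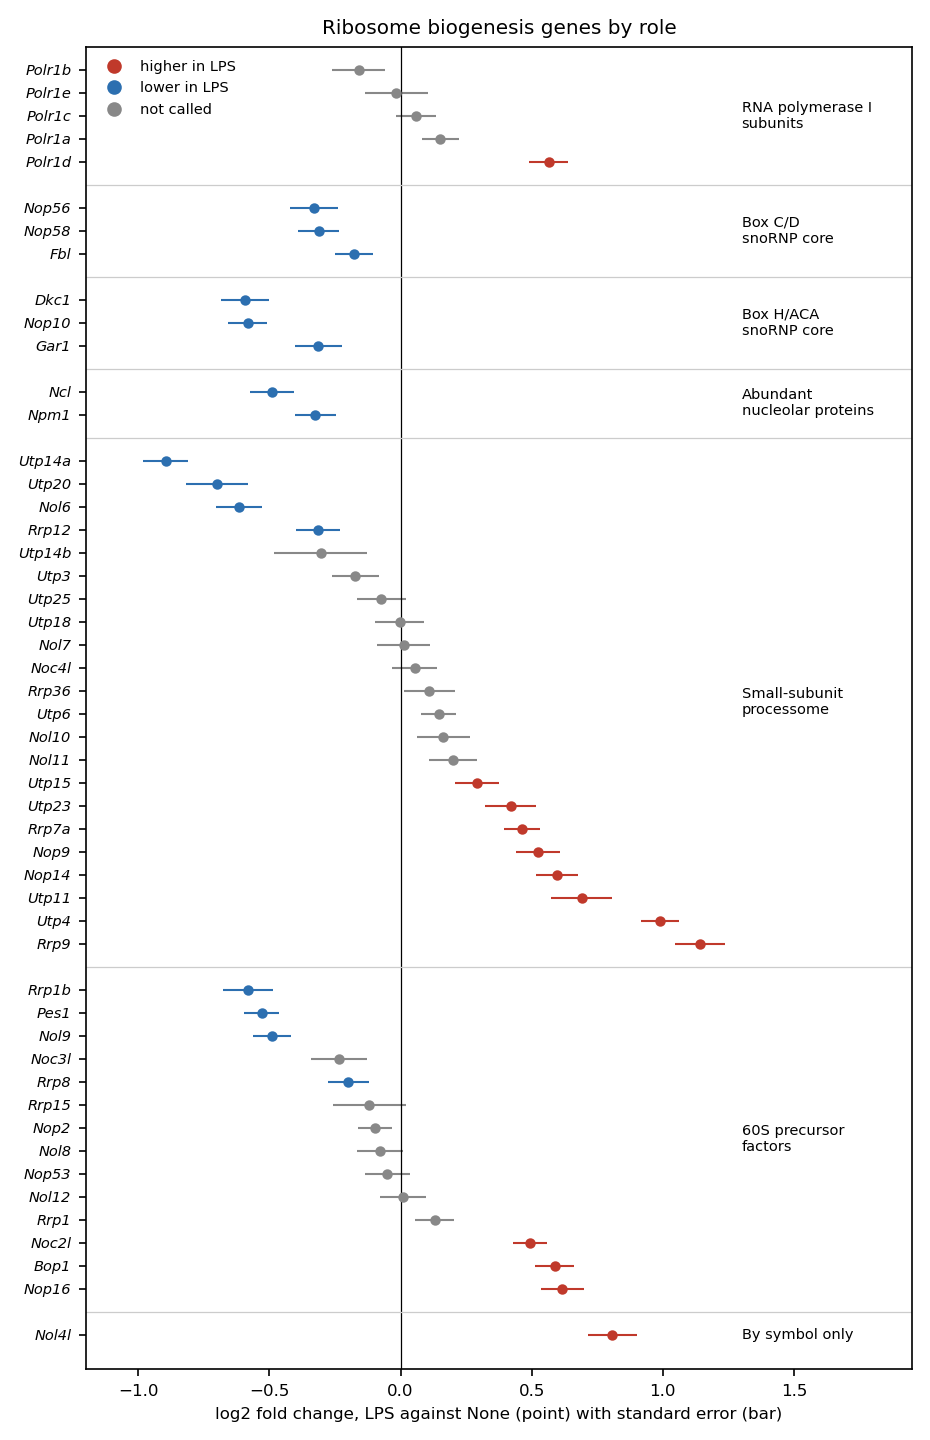
Fitted log2 fold change of LPS against None for the 50 tested members (points, with standard errors as bars), grouped by role and coloured by call. Each of the 6 snoRNP core genes and both abundant nucleolar protein genes lie left of 0, whereas the small-subunit processome spans from -0.90 (Utp14a) to 1.14 (Rrp9).

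RNA polymerase I has a catalytic core of its largest and second-largest subunits, encoded by Polr1a and Polr1b. The CPM of Polr1a were 68.3, 73.1 and 68.2 without stimulus and 75.7, 76.0 and 81.2 with LPS. The LPS values were all above the None values, but the log2 fold change of 0.15 ± 0.07 (SE) had an adjusted p of 0.0679 in edgeR, was not called, and was -0.11 with scaling by library totals. Polr1b had 26.6, 25.4 and 26.1 CPM in None and 22.1, 26.6 and 21.2 CPM in LPS. The groups overlapped, and the log2 fold change of -0.16 ± 0.10 was not called. Polr1b was called lower without LPS replicate 2 (-0.26, edgeR adjusted p 0.0303), with library totals (-0.42) and on TPM (-0.43). Polr1c and Polr1d encode a pair of small subunits that RNA polymerase III also uses. Polr1c was at 77.0, 80.9 and 80.8 CPM in the None libraries and at 79.4, 78.4 and 91.0 in the LPS libraries. The CPM of Polr1d were 99.0, 108 and 108 without stimulus and 151, 149 and 167 with LPS. All 3 LPS libraries were higher than all None libraries for Polr1d, which rose 1.48-fold (log2 0.57 ± 0.07, edgeR adjusted p 2.26e-05), whereas Polr1c lay at 0.06 ± 0.08 and was not called. With library totals Polr1c was lower, at -0.20 (edgeR adjusted p 0.0298), and on TPM it lay at -0.13 and was not called. Some Polr1d counts were fractional, so reads were divided between it and other genes. Polr1e, which encodes a subunit that takes part in initiation, had 17.4 ± 2.20 CPM (SD, n = 3) in None and 17.2 ± 1.92 in LPS, and its log2 fold change was -0.02, or -0.47 and called lower on TPM.

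Further subunits of the enzyme appear in the tables under older symbols that the choice by symbol did not take in. Cd3eap (Polr1g) fell, with a log2 fold change of -0.39 ± 0.11, and Twistnb (Polr1f) fell by 0.30 on the log2 scale. The call of Twistnb was lost when any 1 of 5 libraries was left out and with DESeq2 (adjusted p 0.0528). Znrd1 (Polr1h) lay at -0.13 and was not called, but was lower with library totals (-0.39) and on TPM (-0.36). Among the factors that place the enzyme on its promoter, Ubtf, the binding factor that keeps ribosomal DNA open, fell from 106 ± 5.28 to 61.3 ± 3.64 CPM (log2 -0.79 ± 0.07). Taf1a (-1.22) and Taf1c (-0.81), subunits of the selectivity factor SL1, also fell. Tcof1, the nucleolar scaffold treacle, rose by 0.63 on the log2 scale, and Rrn3, the initiation factor that joins enzyme and promoter, by 0.36. Rrn3 was not called with scaling by library totals (0.10, adjusted p 0.242 in edgeR) or on TPM (0.13, adjusted p 0.238 in limma). In this list of 13 genes 7 fell and 3 rose, beside 35.1% and 34% of all genes. Library totals gave 9 lower and 2 higher, and TPM 8 and 1. Of the 5 subunits shared by all 3 polymerases, Polr2l fell (-0.41) and the other 4 were not called, at -0.20 to 0.19. With library totals 4 of the 5 were lower and none higher, and on TPM the numbers were the same.

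The box C/D core consists of the methyltransferase fibrillarin (Fbl) and the scaffold proteins Nop56 and Nop58, together with Snu13, which binds the RNA. Nop56 had 155, 177 and 178 CPM in None and 123, 152 and 129.9 CPM in LPS. Nop58 was at 88.7, 88.6 and 97.2 CPM in the None libraries and at 71.8, 80.2 and 69.1 in the LPS libraries. The CPM of Fbl were 168, 152 and 148 without stimulus and 142, 134 and 138 with LPS. In all 3 genes every LPS library was below every None library. The log2 fold changes were -0.33 ± 0.09 for Nop56, -0.31 ± 0.08 for Nop58 and -0.18 ± 0.07 for Fbl. The adjusted p-values from edgeR were 0.0059, 0.00324 and 0.0449. The call of Fbl was lost with RLE size factors (adjusted p 0.0816 in edgeR), with no filter on low counts (0.0513), with DESeq2 (0.104), and without None replicate 1 (0.165), None replicate 2 (0.0794), LPS replicate 2 (0.124) or LPS replicate 3 (0.0816). Snu13, which also serves the spliceosome, had 135 ± 2.23 and 130.3 ± 4.08 CPM and was not called at -0.05.

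The box H/ACA core has the pseudouridine synthase dyskerin (Dkc1) with Gar1, Nop10 and Nhp2, and dyskerin is also part of telomerase. Dkc1 had 72.9, 71.8 and 70.9 CPM in None and 43.3, 55.0 and 44.7 CPM in LPS. Nop10 was at 76.2, 70.4 and 66.3 CPM in the None libraries and at 48.2, 46.0 and 47.8 in the LPS libraries. The CPM of Gar1 were 24.4, 26.0 and 23.2 without stimulus and 20.3, 19.8 and 19.0 with LPS. Groups did not overlap for any of the 3. Dkc1 fell 1.51-fold (log2 -0.59 ± 0.09, edgeR adjusted p 8.19e-05). Nop10 fell 1.5-fold (log2 -0.58 ± 0.08), and Gar1 fell 1.24-fold (log2 -0.31 ± 0.09, edgeR adjusted p 0.00773, or 0.0517 and not called without None replicate 2). Nhp2 was not called, at 95.0 ± 6.22 CPM in None and 91.5 ± 4.37 in LPS. Snu13 and Nhp2, the core genes outside the set, were lower with library totals (-0.30 and -0.31) and on TPM (-0.27 for each). Some counts of Fbl and Nop56 were fractional. The span of Nop56 overlaps Idh3b on the opposite strand, with 11245 counts beside the 15372 of Nop56. That of Dkc1 overlaps Mpp1, with 8928 counts beside the 6089 of Dkc1. The sources used here do not say whether counting used strand, so reads of such pairs cannot be told apart where their exons overlap.

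Promoter stretches of these genes, which moved together, are shown beside those of some members that hold the letters CACGTG in the same stretch. CACGTG is the E-box form that Myc and Max bind. RefSeq promoters (GRCm38.p6, 250 bases before to 50 after the start) matched 41 of the 52 members by symbol. Each line is the 100 bases before the start, 5′ to 3′ on the strand of the gene, and capitals mark CACGTG:
Nop56 (chr2:130274312-130274411, plus strand): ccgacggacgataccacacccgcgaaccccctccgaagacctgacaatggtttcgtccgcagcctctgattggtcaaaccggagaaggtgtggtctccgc
Nop58 (chr1:59684906-59685005, plus strand): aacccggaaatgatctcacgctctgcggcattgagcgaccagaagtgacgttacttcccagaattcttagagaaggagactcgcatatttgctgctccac
Dkc1 (chrX:75095754-75095853, plus strand): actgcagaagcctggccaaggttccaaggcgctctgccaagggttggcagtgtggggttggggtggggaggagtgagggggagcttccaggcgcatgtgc
Gar1 (chr3:129831397-129831496, minus strand): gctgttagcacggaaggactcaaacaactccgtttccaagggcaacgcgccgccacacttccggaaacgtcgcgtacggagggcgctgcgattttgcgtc
Nop10 (chr2:112261826-112261925, plus strand): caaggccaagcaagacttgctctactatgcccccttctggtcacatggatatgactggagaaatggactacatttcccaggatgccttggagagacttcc
Nop2 (chr6:125131783-125131882, plus strand): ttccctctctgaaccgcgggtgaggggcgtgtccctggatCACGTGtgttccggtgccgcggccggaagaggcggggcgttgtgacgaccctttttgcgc
Nol11 (chr11:107189382-107189481, minus strand): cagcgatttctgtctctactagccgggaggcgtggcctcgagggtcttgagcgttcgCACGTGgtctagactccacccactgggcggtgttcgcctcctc
Utp18 (chr11:93885767-93885866, minus strand): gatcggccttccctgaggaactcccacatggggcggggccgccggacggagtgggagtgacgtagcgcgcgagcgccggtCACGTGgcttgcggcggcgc
The first 5 genes fell and have no CACGTG in their 300 bases. Nop2, Nol11 and Utp18 hold it in the bases shown and were not called. However, Nop2 and Utp18 were called lower with library totals and Nop2 also on TPM. Nol11 was called higher without LPS replicate 3. They are not all of its holders: Pes1 and Utp20, which fell, and Utp4, which rose, have it after the start, and Rrp7a, which rose, has it further upstream. Utp14b, not called and not shown, also holds it in the 100 bases before the start (first base at -63). Utp25, another holder, was not called. CACGTG reads the same on both strands. It stood in the promoter of 9 of the 41 members (22.0%), in 12% of 9018 genes tested that had a promoter entry, and in 8.09% of all 27025 genes of the promoter table. By call it was found for 2 of 10 members that rose, 2 of 12 that fell and 5 of 19 not called. In the same libraries Myc rose 43.1-fold, from 0.872 ± 0.246 to 38.1 ± 6.12 CPM. A match of letters is a description of the sequence and not a bound site.

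Some of these genes carry snoRNAs in their own introns. By the coordinates in the tables, 5 members held 14 annotated snoRNA genes on their own strand: Nop56 (5), Nop58 (4), Ncl (3), Dkc1 (1) and Nop53 (1). That is 10.0% of the tested members, and 1.78% of all genes tested were hosts by the same rule. Of the 5 hosts 4 fell, and of the 212 hosts among all genes 74 fell and 60 rose. The snoRNAs themselves had 0 counts in all 6 libraries, so their levels were not measured. Examples from the hosts that fell are given in DNA letters from GENCODE M21 (GRCm38). Capitals mark the first TGATGA and the last CTGA, the letters of box C and box D, and in Snora75 the last ACA, the letters of box ACA:
Snord110 (chr2:130275506-130275573, plus strand): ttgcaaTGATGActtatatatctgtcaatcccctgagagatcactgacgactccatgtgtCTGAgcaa
Snord11 (chr1:59704790-59704873, plus strand): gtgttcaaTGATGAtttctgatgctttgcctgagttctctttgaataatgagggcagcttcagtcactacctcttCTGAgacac
Snord82 (chr1:86356261-86356330, minus strand): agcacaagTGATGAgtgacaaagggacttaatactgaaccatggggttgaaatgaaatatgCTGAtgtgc
Snora75 (chr1:86351169-86351301, minus strand): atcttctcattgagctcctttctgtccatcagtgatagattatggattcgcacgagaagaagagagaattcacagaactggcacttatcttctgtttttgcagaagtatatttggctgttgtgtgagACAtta
Snord110 lies in Nop56, Snord11 in Nop58, and Snord82 and Snora75 in Ncl. Snord57 in Nop56 and Snord70 in Nop58, which are not shown, do not hold the letters TGATGA.

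Nucleolin and nucleophosmin are the abundant RNA-binding and chaperone proteins of the nucleolus. Ncl had 896, 969.6 and 1035 CPM in None and 644, 737 and 683 CPM in LPS. Npm1 was at 1842, 1927 and 2044 CPM in the None libraries and at 1508, 1544 and 1589 in the LPS libraries. Every LPS library was lower than every None library. Ncl fell 1.41-fold (log2 -0.49 ± 0.08, edgeR adjusted p 0.000204) and Npm1 fell 1.25-fold (log2 -0.32 ± 0.08, edgeR adjusted p 0.00228). Some Npm1 counts were fractional, so reads were divided between it and other genes. Per transcript length these were also among the highest members, with Npm1 at 2438 ± 76.3 TPM and Ncl at 327 ± 13.6 TPM in None. The order in None went on with Nop53 (305 ± 28.2 TPM), Nop56 (214 ± 21.6), Fbl (208 ± 15.4), Polr1d (142 ± 6.76), Polr1c (127 ± 5.27), Nop58 (117 ± 9.51) and Nop10 (103 ± 8.40). In that order the library values of Ncl and Nop53, Nop56 and Fbl, Polr1c and Nop58, and Nop58 and Nop10 overlapped. In LPS the order was Npm1 (1654 ± 45.7 TPM), Nop53 (252 ± 41.8), Ncl (209.7 ± 17.2), Polr1d (179 ± 5.02), Fbl (158 ± 4.88) and Nop56 (130.0 ± 14.9). Polr1d thus stood above Fbl and Nop56, which were above it in None. The values of Nop53 and Ncl overlapped in LPS. Most members were far lower: the median member had 23.3 TPM in None. The summed TPM of all 52 members was 5175 ± 131 in None and 3972 ± 109.9 in LPS, and without Ncl and Npm1 it was 2410.5 ± 81.8 and 2108.5 ± 47.1.

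**Figure D2:**
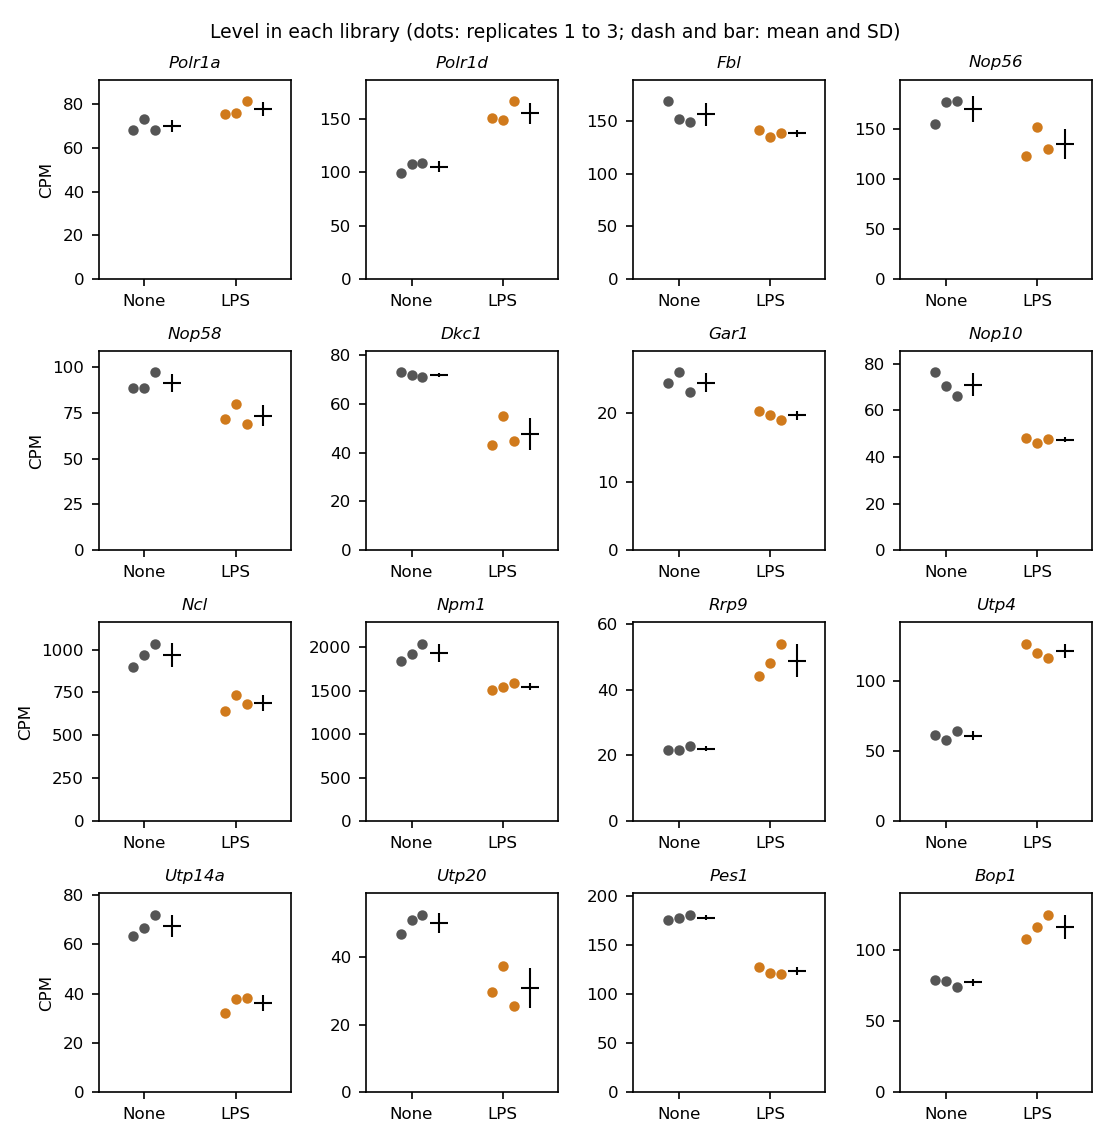
CPM in each of the 6 libraries for 16 members (dots: replicates 1 to 3, None in grey and LPS in orange; dash and bar: mean and SD). The groups do not overlap in any of these panels, and LPS is higher for Polr1a (not called, and at -0.11 on the log2 scale with library totals), Polr1d, Rrp9, Utp4 and Bop1.

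The small-subunit processome was the group with the widest spread. Of its 22 members, all tested, 8 rose, 4 fell and 10 were not called. The rising share of 36.4% was near that of all genes (34%), and the falling share was 18.2%, beside 35.1%. Scaled by library totals the counts were 6 higher and 8 lower, and on TPM 7 and 5. Rrp9, the protein that recognises the U3 snoRNA at the centre of this particle, had the largest increase. The CPM of Rrp9 were 21.6, 21.7 and 23.0 without stimulus and 44.0, 48.2 and 54.0 with LPS. Every LPS value was above every None value, and Rrp9 rose 2.21-fold (log2 1.14 ± 0.09, edgeR adjusted p 3.66e-07). Utp4 belongs to the subcomplex that binds the nascent precursor first. Utp4 had 61.6, 57.7 and 64.3 CPM in None and 127, 120.3 and 117 CPM in LPS. It rose 1.98-fold (log2 0.99 ± 0.07, edgeR adjusted p 1.17e-07) with no overlap of the groups. Utp15 and Nol11 act in the same subcomplex. Utp15 had a log2 fold change of 0.29 (0.03, not called, with scaling by library totals, and 0.06, not called, on TPM). Nol11 was not called at 0.20, but was called higher without LPS replicate 3. Utp11 (0.69), Nop14 (0.60), the RNA-binding protein gene Nop9 (0.52), Rrp7a (0.46) and Utp23 (0.42, or 0.16 and not called with library totals) rose as well. Rrp7a had fractional counts, and its span overlaps Serhl on the opposite strand, with 3872 counts beside the 10743 of Rrp7a. In Utp11 None replicate 1 stood at 32.3 CPM against 44.7 and 45.4 in the other None libraries, all below the LPS values of 60.5, 66.4 and 70.8.

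On the other side, Utp14a encodes the protein that switches on the helicase Dhx37 to release U3. Utp14a was at 63.3, 66.5 and 71.9 CPM in the None libraries and at 32.3, 37.8 and 38.3 in the LPS libraries. Utp14a fell 1.86-fold (log2 -0.90 ± 0.09, edgeR adjusted p 1.61e-06), the largest decrease of the set, and Dhx37 itself, outside the set, fell by 0.91 on the log2 scale. Utp20, a very large scaffold protein, also fell. The CPM of Utp20 were 46.8, 50.7 and 52.4 without stimulus and 29.5, 37.2 and 25.6 with LPS. The LPS values were all lower but spread from 25.6 to 37.2, and the log2 fold change was -0.70 ± 0.12. Nol6 (-0.61) and the 40S maturation and export factor Rrp12 (-0.31) fell too. Nol6 and Rrp7a, which moved in opposite directions, are members of the same UtpC subcomplex, and its partner Rrp36 was not called at 0.11. The members not called were Utp14b, Utp3, Utp25, Utp18, Nol7, Noc4l, Rrp36, Utp6, Nol10 and Nol11, between -0.31 and 0.20 (Noc4l at 0.05, or -0.20 with library totals). Utp18 had 36.8, 39.6 and 36.4 CPM in None and 37.2, 41.6 and 33.7 in LPS, with overlapping groups. The span of Nol7 overlaps Ranbp9 on the opposite strand, with 3989 counts beside the 4496 of Nol7. Utp14b lies within the span of Acsl3 on the same strand and had fractional counts, so its level of 7.08 ± 1.08 CPM in None is uncertain.

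Of the 14 members of 60S assembly 3 rose (21.4%), 4 fell (28.6%) and 7 were not called. Over all genes 34% rose and 35.1% fell. Scaling by library totals gave 3 higher and 10 lower genes, and TPM gave 3 and 7. Pes1 and Bop1 encode partners in the PeBoW complex, which is required to process the precursor of the large ribosomal RNAs, with Wdr12 as its other subunit. Pes1 had 175, 177 and 181 CPM in None and 128, 122 and 120.2 CPM in LPS. Bop1 was at 79.2, 78.5 and 74.5 CPM in the None libraries and at 108, 116 and 125 in the LPS libraries. The pair moved apart with no overlap of groups in either gene. Pes1 fell 1.44-fold (log2 -0.53 ± 0.07, edgeR adjusted p 1.53e-05), and Bop1 rose 1.5-fold (log2 0.59 ± 0.07, edgeR adjusted p 1.57e-05). The span of Bop1 overlaps Mroh1 and Scx on the opposite strand, which held 8709 counts in all. Wdr12, outside the set, fell by 0.22 on the log2 scale, a call lost with DESeq2 (adjusted p 0.0832) and without None replicate 2 or 3 or LPS replicate 1 or 3 (0.0561 to 0.121).

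Nop16, a nucleolar 60S factor, rose. The CPM of Nop16 were 62.5, 61.9 and 69.4 without stimulus and 89.7, 103 and 104 with LPS. Noc2l, which travels with early 60S precursors, rose by 0.49 ± 0.06 on the log2 scale, from 118 ± 2.69 to 166 ± 1.49 CPM. Its partner Noc3l was not called at -0.23, but was lower with library totals (-0.49), on TPM (-0.39) and without LPS replicate 2 (-0.34, edgeR adjusted p 0.015). Rrp1b fell while its paralog Rrp1 was not called. Rrp1b had 44.1, 48.9 and 50.4 CPM in None and 28.3, 35.1 and 32.3 CPM in LPS. The log2 fold changes were -0.58 ± 0.10 for Rrp1b and 0.13 ± 0.08 for Rrp1. Nol9, the kinase that acts on the cut spacer between the large ribosomal RNAs, fell by 0.49 on the log2 scale, with 54.8, 53.0 and 55.8 CPM in None and 39.7, 39.1 and 37.7 in LPS. Rrp8, a methyltransferase of 28S ribosomal RNA, fell by 0.20 on the log2 scale (edgeR adjusted p 0.041), and its call was lost without any of 5 libraries (all except LPS replicate 1) and with DESeq2 (adjusted p 0.144). The span of Rrp8 overlaps Ilk on the opposite strand, with 11928 counts beside the 3994 of Rrp8. The methyltransferase gene Nop2 had 75.1, 75.6 and 77.2 CPM in None and 69.4, 72.3 and 71.5 in LPS. These values did not overlap, and its log2 fold change of -0.10 was not called (edgeR adjusted p 0.205). With library totals and on TPM Nop2 was called lower. The other members not called, Rrp15, Nol8, Nol12 and the exosome adaptor Nop53, lay between -0.12 and 0.01.

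Nol4l, Nol3 and Nol4 share only the symbol pattern and are not known as ribosome assembly factors. Nol4l rose 1.75-fold, from 18.5 ± 1.64 to 32.3 ± 1.12 CPM (log2 0.81 ± 0.09, edgeR adjusted p 7.88e-06). Nol3, which encodes an inhibitor of apoptosis, had 16 counts in the 6 libraries together, and Nol4 had 0, so neither was tested. Without Nol4l 12 members rose.

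Partners of a complex can be compared by the ratio of their TPM within each library, which no scaling of libraries changes. For this, 8 pairs were computed, chosen from known complexes after the values had been seen. The ratio of Pes1 to Bop1 was 2.0, 2.29 and 2.24 in the None libraries and 1.07, 0.874 and 0.853 in the LPS libraries, with an LPS mean at 0.427 of the None mean. The ratio of Rrp9 to Nop58, both proteins of the U3 snoRNP, went the other way, from 0.195, 0.174 and 0.169 to 0.472, 0.442 and 0.634, which is 2.88 times its None mean. Polr1a against Polr1b went from 1.20, 1.14 and 1.28 to 2.05, 1.63 and 2, and neither gene was called. That separation held on TPM only. By counts their ratios overlapped between groups, with 1414 to 492 in None replicate 2 and 1047 to 366 in LPS replicate 2. Polr1d against Polr1c went from 1.08, 1.11 and 1.17 to 1.62, 1.36 and 1.68. Noc2l against Noc3l (1.67 times) and Nop14 against its processome partner Noc4l (1.35 times) were also higher in each LPS library than in any None library. Since the pairs were chosen with their values known, these ratios are a description. An exact permutation test gave a p of 0.1 for each pair whose groups did not overlap. That is the smallest two-sided p that 3 against 3 libraries can give, so the test could not decide. The ratio of Nop56 to Nop58 overlapped between groups at 1.76, 1.94 and 1.77 and 1.58, 1.61 and 1.76, as did that of Dkc1 to Nop10 at 0.394, 0.460 and 0.495 and 0.412, 0.538 and 0.386.

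**Figure D3:**
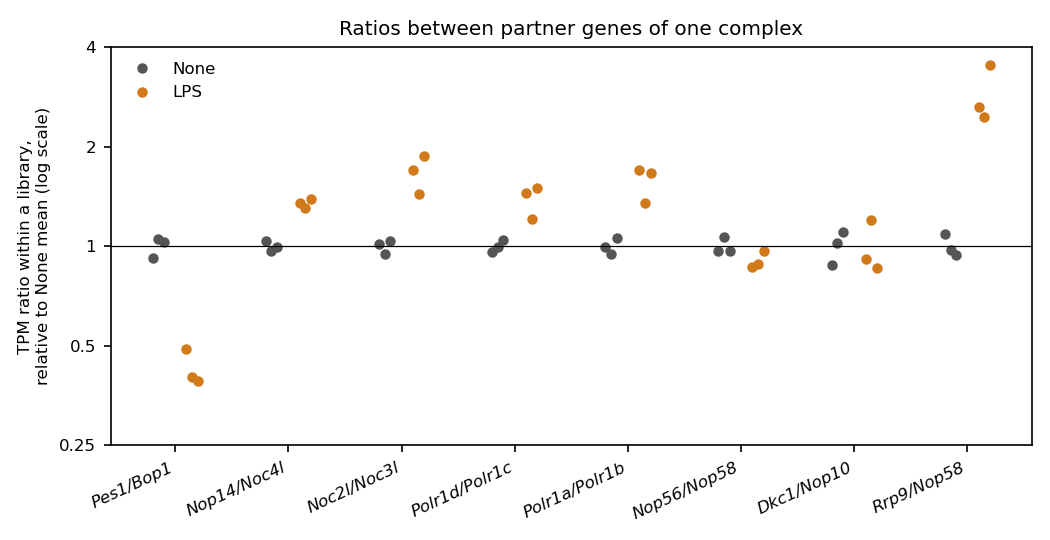
TPM ratio of 8 gene pairs within each library, divided by the mean of the None libraries (log axis; dots are single libraries). Pes1 to Bop1 lies at 0.427 of the None mean on average in LPS and Rrp9 to Nop58 at 2.88, while Nop56 to Nop58 and Dkc1 to Nop10 overlap between groups.

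Other genes of the pathway were taken from lists by function. Of 121 such genes 33 rose (27.3%), 37 fell (30.6%) and 51 were not called, again beside 34% and 35.1% of all genes. Library totals gave 17 higher and 68 lower genes, and TPM gave 16 and 61. Among other 40S factors, 7 of 30 rose and 8 fell, against 5 and 16 with library totals and 5 and 15 on TPM. The acetyltransferase Nat10 (-0.79), Imp4 (-0.74) and Dhx37 fell and Dcaf13 (0.74) rose. Among other 60S factors 12 of 35 rose and 9 fell, but 4 were higher and 16 lower with library totals and 5 and 13 on TPM. With TMM scaling the genes with the largest changes were Eif6, whose product keeps 60S subunits from joining early (0.70), the GTPase Efl1 that removes it (0.81), Rpf2 (0.81) and the GTPase Gtpbp4 (0.78). Of 10 snoRNP assembly and accessory genes, Snu13 and Nhp2 included, 2 rose, Znhit3 (0.98) and Nufip1 (0.77), and 2 fell, Rpap3 (-0.72) and Pih1d1 (-0.52). The last 2 are subunits of a cochaperone that assembles snoRNPs. Library totals and TPM each gave 2 higher and 6 lower. Of 13 nucleolar helicases 4 rose, with Ddx24 at 0.62, and 5 fell, with Ddx51 at -0.94, Ddx52 at -0.73 and Ddx49 at -0.53, against 2 higher and 8 lower by library totals and by TPM.

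Of 15 exosome and trimming genes 5 rose and 5 fell, a split that became 2 and 9 with library totals and 1 and 7 on TPM. The nuclease Dis3 (0.54) and Exosc4 (0.59, or 0.25 and not called on TPM) rose and Exosc5 fell (-0.62). The largest change of any pathway gene was that of Exosc6, a subunit of the exosome ring. Its CPM were 14, 13.5 and 13.8 in the None libraries and 0.0710, 3.05 and 1.15 in the LPS libraries. The value of LPS replicate 1 stands for a single count. The LPS libraries differed widely among themselves but lay far below every None library, and the fitted log2 fold change was -3.27, or -2.71 without LPS replicate 1 and -4.47 without LPS replicate 2.

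The other nuclear polymerases and the ribosomal protein genes give the nearest comparisons. Of 8 subunits of RNA polymerase II outside the shared ones 2 rose, Polr2g (0.68) and Polr2c (0.60), and 4 fell, among them the largest subunit gene Polr2a (-0.58) and Polr2j (-0.50). Of 10 RNA polymerase III subunits 2 rose and 5 fell. The second-largest subunit gene Polr3b fell from 62.4 ± 0.549 to 25.5 ± 3.32 CPM (log2 -1.29 ± 0.09), Polr3gl and Polr3f fell by 1.19 and 1.10 on the log2 scale, and Polr3d rose by 0.84. The difference between the polymerases was not tested. Library totals gave 2 higher and 5 lower genes for polymerase II and 2 and 8 for polymerase III. Of 86 tested genes with Rpl or Rps symbols 8 rose and 12 fell, with a median log2 fold change of -0.06. With library totals 64 of them were lower and none higher, and on TPM 58 were lower and none higher. The median was -0.32 with library totals and -0.29 on TPM, beside -0.29 and -0.19 for all genes. The median was thus below 0 under each scaling, while the number called depended on the scaling. The list was taken by symbol and also holds Rps19bp1, which encodes a binding protein and is 1 of the 8, and genes named as copies, such as Rpl9-ps6 (rose) and Rpl10-ps3 (fell). Ribosomal protein genes have many processed copies that can share reads.

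**Figure D4:**
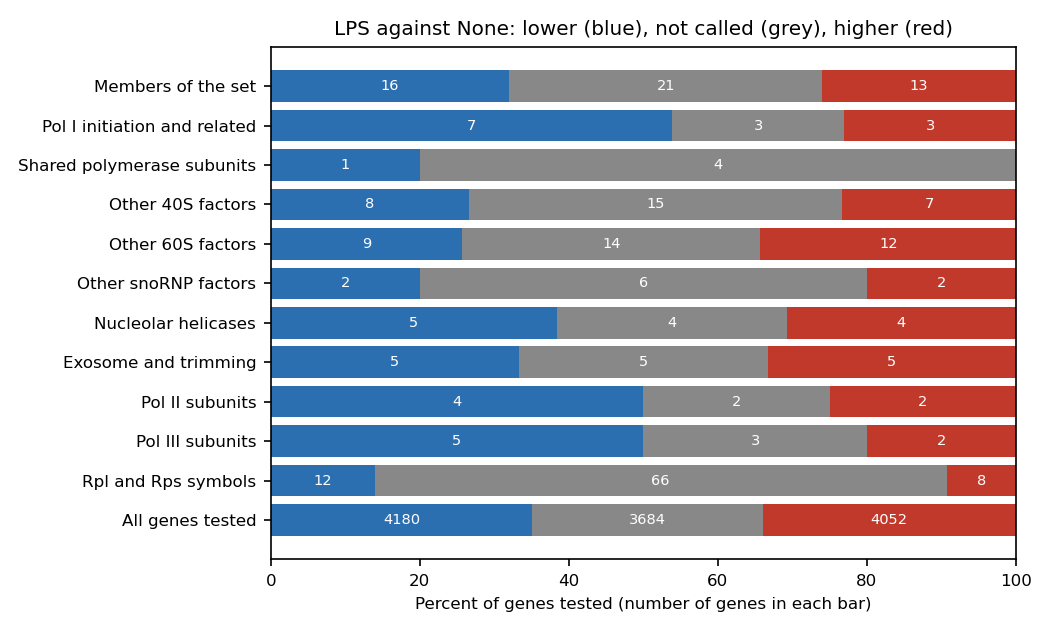
Share of genes lower in LPS (blue), not called (grey) and higher (red) in the set, in the other lists and among all genes tested, with the number of genes printed in each bar. The set has 16 lower, 21 not called and 13 higher, and the bar of all genes stands at 4180, 3684 and 4052.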

How the data were processed

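Messenger RNA of RAW-Blue cells was measured by RNA sequencing in 3 None and 3 LPS libraries. Per the submitters' processing notes, STAR 2.7.10a, RSEM 1.3.1 and GRCm38 were used. The authors deposited expected counts (estimated, not normalized) and TPM (scaled by transcript length and library) per gene, and the sources used here do not say whether counting used strand. A further 12 library columns matched no sample labels and were not used. Expected counts were rounded, genes were kept by filterByExpr (minimum count 10, total 15), and the groups were compared with edgeR 4.0.16 (R 4.3.3) by its quasi-likelihood test with TMM scaling and Benjamini-Hochberg adjustment over 11916 genes. Alternatives used RLE factors, library totals, other filters, a replicate block, each library left out, DESeq2 1.42.0 and limma 3.58.1 on log2(TPM + 1) or log2(TPM + 0.1). The fit was also run on simulated data, in which few genes changed and as many rose as fell. That simulation has no bearing on the choice of scaling. Same-numbered None and LPS libraries did not deviate together (r of 0.08, -0.02 and 0.01), so no sign of pairing by number was seen. With 3 libraries a group this cannot show that they were unpaired. Named members were those named in the symbol rule, the polymerase subunits and up to 4 called members with the largest change in each role, and from other lists up to 4 called genes with the largest change. Further genes were named after their values were seen. The members and lists were chosen with earlier results of these data known. Of 165 list entries 164 were matched, 1 through a synonym.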

Additional observations from a re-analysis of the deposited data

How the results depend on the processing

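With library totals the number of lower members moved from 16 to 28. Among other pathway genes, higher calls went from 33 to 17 with library totals, 16 on TPM with either pseudocount and 15 on TPM with no filter, and lower calls from 37 to 68, 61 and 58. Over all genes 2679 were higher with library totals, 2672 on log2(TPM + 1) and 2656 on log2(TPM + 0.1), against 4052. With library totals 10 members changed sign and on TPM 7, none of which was called with TMM scaling. Among those given sentences of their own, Noc4l changed to -0.20 (library totals) and -0.0510 (log2(TPM + 1)) or -0.0531 (log2(TPM + 0.1)), Polr1a to -0.11 (library totals), Polr1c to -0.20 (library totals) and -0.13 (TPM), and Polr1e to 0.0060 (RLE) and 0.0064 (DESeq2). With each library left out in turn, Polr1c ranged from -0.0033 to 0.11 and Polr1e from -0.10 to 0.0905. The CANNTG motif stood in 65.9% of the member promoters, against 22.0% for CACGTG, and in 66.7% of genes tested and 75% of all promoters. The replicate block gave 13 members higher and 17 lower, with the call of Rrp8 lost and those of Noc3l and Utp3 gained, although no sign of pairing by number was seen. With 3 libraries a group, changes as small as that of Fbl lay at the threshold.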
